A study of Mus musculus with 4 samples.

Results

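The immunity-related GTPases (IRG) are a family of mouse GTP-binding proteins made in cells exposed to interferons. Members were the 6 gene rows of the deposited matrices with the symbols Irgm1, Irgm2, Igtp, Iigp1, Tgtp1 and Tgtp2, out of 31053 gene rows. They were read in cells from small-intestinal crypts taken 7 days after lethal irradiation and marrow transplantation, with droplet-based 3′ RNA sequencing. All recipients were female C57BL/6 mice of 8 to 12 weeks. The syngeneic group, labelled control, received C57BL/6 marrow, and the allogeneic group received BALB/c marrow, which sets up graft-versus-host disease (GVHD), an attack of donor immune cells on host tissue. Each group had 2 libraries, each 1 pool of 3 to 4 mice, so a pool is the replicate (n = 2 against n = 2). Every library name starts with "KO", and its meaning is not stated. The labels do not say whether the pools of a group came from separate transplants, so a p-value measures only the spread between these libraries. Values per library follow the order syngeneic 1, syngeneic 2, allogeneic 1, allogeneic 2.

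As background, the family falls into a regulatory and an effector branch. The regulators Irgm1, Irgm2 and Igtp (also called Irgm3) sit on the cell's own membranes and hold the effectors in their inactive state. The effectors Iigp1 (Irga6), Tgtp1 and Tgtp2 (Irgb6) load onto the vacuole around an intracellular parasite or bacterium and help break it open. Interferon gamma, which activated T cells and natural killer (NK) cells release, acts on promoter elements named GAS (gamma-activated site) and ISRE (interferon-stimulated response element) to switch these genes on.

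In GENCODE M21 (GRCm38/mm10), 5 members lie on chromosome 11. Irgm1 (ENSMUSG00000046879, chr11:48861968-48871683), Tgtp1 (ENSMUSG00000078922, chr11:48985327-48994172) and Tgtp2 (ENSMUSG00000078921, chr11:49057194-49064206) lie on the minus strand. Igtp (ENSMUSG00000078853, chr11:58199556-58207591) and Irgm2 (ENSMUSG00000069874, chr11:58199618-58222782) lie on the plus strand and overlap. By genomic position their exons overlap little: Igtp and Irgm2 share 162 exonic bases. These are 8.0% of the exonic bases of Igtp and 4.4% of those of Irgm2. Tgtp1 shares 223, or 7.0% of its exonic bases, with Gm12185, another IRG-related row. Overlap in position does not measure likeness of sequence, and Tgtp1 and Tgtp2 are near-identical neighbours, as described below.

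The promoter stretches below are shown because 4 of them carry the letters of both elements side by side. RefSeq promoters (GRCm38.p6, from 250 bases before to 50 bases after the RefSeq start) were at hand for 5 of 6 members, all but Iigp1. Each stretch is 50 bases, 5′ to 3′ on the gene's strand. Capitals mark matches to the ISRE (the letters GAAA, any 2 bases, then GAAA again) and to the GAS (TTCNNNGAA), both searched on both strands.
Irgm1: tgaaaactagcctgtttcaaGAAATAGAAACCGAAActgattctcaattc
Irgm2: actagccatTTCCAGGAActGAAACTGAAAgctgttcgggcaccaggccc
Igtp: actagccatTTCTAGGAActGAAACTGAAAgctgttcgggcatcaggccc
Tgtp1: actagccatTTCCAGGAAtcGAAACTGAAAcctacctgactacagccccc
Tgtp2: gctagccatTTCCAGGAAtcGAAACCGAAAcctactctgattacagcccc

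They are at chr11:48871421-48871470 (minus strand, Irgm1), chr11:58214893-58214942 (plus, Irgm2), chr11:58199502-58199551 (plus, Igtp), chr11:48992294-48992343 (minus, Tgtp1) and chr11:49064253-49064302 (minus, Tgtp2). An ISRE match was present in 5 of these 5 promoters, against 3.44% of all 32851 RefSeq promoters. A GAS match was present in 4 of 5, against 8.3% of all promoters, and in each of the 4 it ended 2 bases before the ISRE match. A GAS and an ISRE match at most 5 bases apart or overlapping occurred in 33 promoters, 0.1% of the total. The ISRE match began 64 bases before the RefSeq start in Irgm2, 34 in Igtp, 77 in Tgtp1 and 70 in Tgtp2. Compared position by position without gaps, the stretches of Irgm2 and Igtp were identical at 48 of 50 positions, and those of Tgtp1 and Tgtp2 at 38. An inserted base shifts every position after it and lowers such a count. The 38 can thus understate how alike the Tgtp1 and Tgtp2 stretches are. Irgm1 held no GAS match and 2 ISRE matches that overlap each other, beginning 30 and 24 bases before its start. The RefSeq start used here is that of Igtp in GENCODE but lies inside the GENCODE gene in Irgm1, Irgm2 and Tgtp1. Such a match describes letters and is not evidence that a factor binds there, and the members are related copies.

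The libraries held 14961466 to 26677842 UMIs (unique molecular identifiers, sequence tags that let copies of 1 captured RNA be counted once) over 3257 to 6341 barcodes, and any pair of libraries shared 2 to 7 barcodes. After filtering, 12185 cells were kept, of which 2860, 2424, 1809 and 4602 were epithelial. The allogeneic libraries differed more from each other than the syngeneic ones: the log2 difference within a pair had an SD, across 12033 genes, of 0.233 for syngeneic and 0.638 for allogeneic libraries. In allogeneic 1, 27.2% of barcodes exceeded the mitochondrial limit, against 11.2% to 14.9% in the others. Stem-like cells numbered 684, 441, 273 and 44, and enterocyte-like cells 438, 498, 362 and 1763, so both allogeneic libraries also differed in makeup. The 6 epithelial markers Epcam, Krt8, Krt18, Krt19, Cdh1 and Vil1 were all present in the epithelial sums of each library, at 6413 to 9132 CPM together (counts-per-million, a gene's UMIs relative to all UMIs of the sum).

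In all epithelial cells, members of the IRG family were higher in both allogeneic libraries than in both syngeneic ones. Their summed level was 130.2, 127.4, 551.8 and 690.0 CPM, a ratio of group means of 4.82. The 6 genes did not move by the same factor: the ratio of group means was 10.1 for the effector Iigp1 and 8.97 for Tgtp1, but 1.75 for the regulator Irgm2.

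Among the regulators, Irgm1, which also acts in autophagy and mitochondrial upkeep, was at 46.6, 42.3, 118 and 143 CPM. Both allogeneic libraries were above both syngeneic ones, a log2 fold change of 1.63 (SE 0.30) that missed the threshold of 0.05 (edgeR's quasi-likelihood test, Benjamini-Hochberg adjusted p = 0.161). Igtp was at 41.0, 45.6, 147 and 273 CPM. The groups did not overlap, but the 2 allogeneic libraries lay far apart, and the log2 fold change of 2.39 (SE 0.48) did not pass (edgeR adjusted p = 0.178). Irgm2 was at 13.6, 15.4, 26.2 and 24.3 CPM, with both allogeneic libraries close together above the syngeneic pair. Its difference was 0.85 on the log2 scale (SE 0.22, adjusted p = 0.273, edgeR).

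Among the effectors, Iigp1 (ENSMUSG00000054072) lies apart from the other members read here, at chr18:60376027-60392634 on the plus strand. The IRG-related rows Gm4951, Gm4841 and F830016B08Rik lie near it on that chromosome. It was at 25.0, 19.4, 227 and 220.5 CPM, which is 22.2 ± 3.93 in syngeneic and 224 ± 4.43 in allogeneic libraries (SD, n = 2). The 2 allogeneic libraries were nearly equal and far above the syngeneic pair, and Iigp1 rose by a log2 fold change of 3.39 (SE 0.30, edgeR adjusted p = 0.0322). Tgtp1 was at 2.05, 2.39, 20.0 and 19.8 CPM, with equally tight pairs, and rose by 3.22 (SE 0.29, adjusted p = 0.0322). Tgtp2 was at 2.11, 2.39, 13.8 and 10.1 CPM. Its groups did not overlap either, and its log2 fold change of 2.44 (SE 0.27) fell just outside the threshold (edgeR adjusted p = 0.0606). The split of UMIs between Tgtp1 and Tgtp2 is uncertain here and in the classes below. Most of their 3′ end sequence also occurs in another gene, as given with the balance within the family. A call of Tgtp1 and none of Tgtp2 is therefore not shown to be a difference between them.

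**Figure D1:**
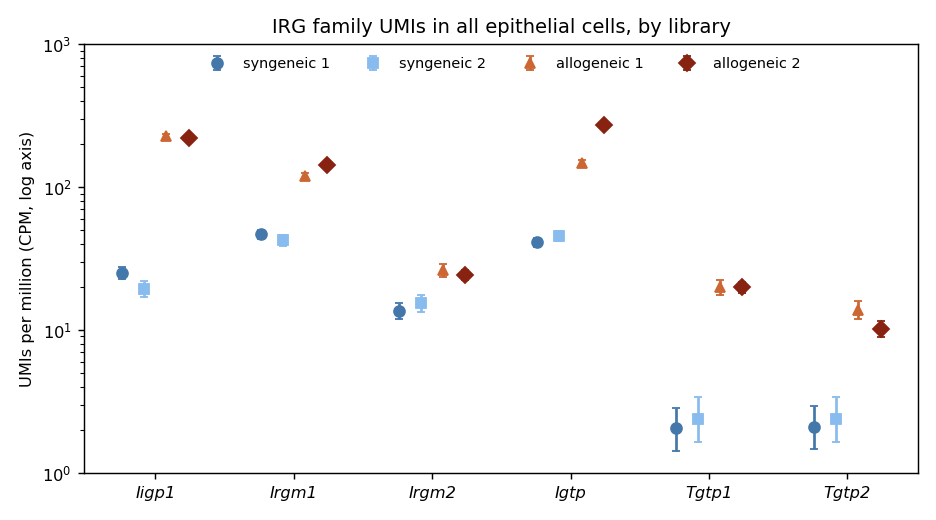
CPM (log axis) of the 6 IRG genes in the epithelial cells of each library; bars are exact 95% Poisson intervals and cover counting error only. For each gene both allogeneic libraries lie above both syngeneic ones, from 26.2 and 24.3 against 13.6 and 15.4 CPM for Irgm2 to 227 and 220.5 against 25.0 and 19.4 CPM for Iigp1.

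In this fit 2 of 6 members were called higher and 0 lower, against 0.141% of 12033 genes called higher and 0.0166% called lower. All 6 had an unadjusted p under 0.05, as did 1187 of the 12033 genes. All 6 also had groups that did not overlap in the allogeneic-higher direction, as 18.2% of all genes did. DESeq2 on the same sums called 5 members, all but Irgm2, against 1.65% of genes called higher and 1.13% lower by that tool. Leaving out either allogeneic library, which removes the spread within that pair, brought the count to 6, but also the share of all genes called higher to 23.9% (without allogeneic 1) and 10.6% (without allogeneic 2). Without allogeneic 2 the log2 fold change of Igtp was 1.60, and without allogeneic 1 it was 2.88. A mitochondrial limit of 10% in place of 20% ended both calls at nearly the same size, with Iigp1 at 3.39 and Tgtp1 at 3.26 (adjusted p = 0.0722 for each, edgeR).

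A sum over all epithelial cells cannot tell more RNA per cell from more cells of a class that holds the RNA. When the 7 named classes were given equal weight in each library, the log2 fold change was 3.44 for Iigp1 and 3.25 for Tgtp1, both still called, and 0.68 for Irgm2. Markers of T or NK cells were low in these sums and overlapped between the groups: 14 and 9 of 15 markers had a UMI in the syngeneic and 15 of 15 in both allogeneic libraries, at 2.24 to 16.6 CPM together in the syngeneic and 7.64 to 11.2 CPM in the allogeneic group. Cd3d, Trbc1, Cd8b1, Cd4, Cd2 and Klrd1 were at 0 in syngeneic 2, and Cd2 in syngeneic 1. After removal of each epithelial cell with a UMI of any of these markers, Iigp1 was 3.39 and Tgtp1 3.23 higher on the log2 scale, and the count of members called was again 2. Myeloid markers summed to 17.4, 20.1, 22.4 and 16.8 CPM, and the groups overlapped.

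Levels were next read by cell class. Classes were assigned to clusters from marker genes and are named with "-like"; a class against the rest is a description here. The members differed in where they were high. Iigp1 had its lowest level in enterocyte-like cells, the absorptive class, in both groups. It was at 7.10, 7.21, 29.1 and 61.4 CPM there, against 44.8, 38.3, 297 and 339 CPM in stem-like cells, which renew the crypt. Tgtp1 and Tgtp2 also had their lowest mean there in both groups. Tgtp1 had 0 UMIs in enterocyte-like cells of both syngeneic libraries, which allows up to 1.64 and 1.66 CPM (3 counts per library), and 2.71 and 1.92 CPM in the allogeneic ones. In stem-like cells Tgtp1 was at 3.92, 5.85, 23.5 and 36.9 CPM.

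Igtp and Irgm2 were instead highest in enterocyte-like cells in the syngeneic group. Igtp was at 95.5 and 115 CPM in syngeneic enterocyte-like cells, apart from the next class, stem-like cells at 42.4 and 42.0 CPM. Irgm2 was at 22.4 and 37.2 CPM in syngeneic enterocyte-like cells and at 5.02 and 7.16 CPM in Paneth-like cells, the makers of antimicrobial peptides, where it was lowest. In the allogeneic group this order was lost within the spread: Igtp was at 114 and 336 CPM in enterocyte-like cells and no class stood apart from its neighbour in the order. The class means of Irgm1 lay between 28.1 CPM (Paneth-like) and 53.1 CPM (cycling progenitor-like) in the syngeneic group and between 98.2 CPM (Paneth-like) and 147 CPM (stem-like) in the allogeneic group.

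For Iigp1 in the allogeneic group the order of class means was enteroendocrine-like (351 CPM), stem-like (318), goblet-like (294), cycling progenitor-like (292), Paneth-like (226), tuft-like (209) and enterocyte-like (45.2). The first 4 of these overlapped with their neighbours, cycling progenitor-like and Paneth-like cells did not, and tuft-like and enterocyte-like cells did not. In the syngeneic group stem-like cells came first (41.6 CPM) and enterocyte-like cells last (7.15 CPM), and enterocyte-like cells were apart from Paneth-like cells, the next class (17.0 CPM). The 6 genes together showed no class whose range over the libraries of a group was apart from that of its neighbour. The allogeneic means ran from 407 CPM in enterocyte-like to 750.0 CPM in enteroendocrine-like cells, and the syngeneic ones from 72.5 CPM in Paneth-like to 184 CPM in enterocyte-like cells. Such ranges do not pair the classes of a library. Within each allogeneic library enterocyte-like cells were lowest, at 257 and 557 CPM, and Paneth-like cells next, at 438 and 587 CPM.

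**Figure D2:**
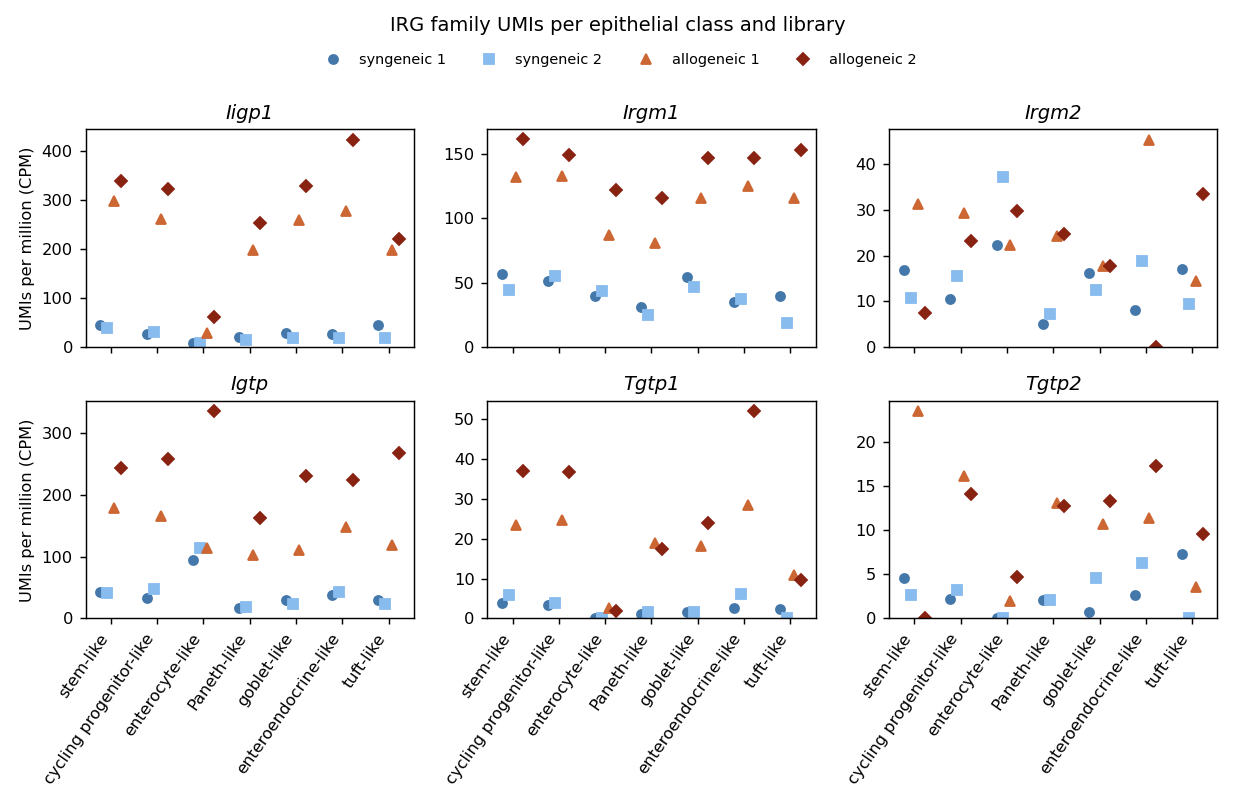
CPM of each gene in 7 epithelial classes, 1 point per library. Iigp1, Tgtp1 and Tgtp2 have their lowest group mean in enterocyte-like cells, while Igtp and Irgm2 in the syngeneic libraries have their highest there; the allogeneic points of Irgm1 lie above its syngeneic points in each class.

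Tested class by class, between 2 and 6 members were called higher in the allogeneic group, and none was called lower in any class. Over all genes the share called lower was 1.02% for the stem-like class, 2.01% for cycling progenitor-like and 1.28% for enterocyte-like cells, and 0.0689%, 0.267%, 0.282% and 0.0262% in Paneth-like, goblet-like, enteroendocrine-like and tuft-like cells. Paneth-like cells had 6 of 6 members called, against 0.78% of 8713 genes. Iigp1 there was at 20.4, 13.6, 198 and 253 CPM, Irgm2 at 5.02, 7.16, 24.2 and 24.7 CPM and Tgtp1 at 1.18, 1.71, 19.0 and 17.4 CPM. The allogeneic libraries were above the syngeneic ones for each of the 6, as they were for 27.4% of all genes tested in this class. The log2 fold changes of the members ran from 1.66 (Irgm1, SE 0.29, edgeR adjusted p = 0.0324) to 3.59 (Iigp1, SE 0.33, adjusted p = 0.00168). Irgm2 rose by 1.86 (SE 0.34, adjusted p = 0.0383), its only call among the 6 fits in which it was tested. Without syngeneic 1 the count was 3 (Iigp1, Igtp and Tgtp1 kept their call), and without syngeneic 2 it was 4. DESeq2 called 4 members in this class, against 0.838% of genes, and with a class assigned cell by cell edgeR called 3.

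In cycling progenitor-like cells, the dividing cells that leave the stem zone, 5 of 6 members were called, against 1.58% of 10537 genes. Iigp1 was at 26.0, 30.1, 262 and 323 CPM and rose by 3.48 (SE 0.34, edgeR adjusted p = 5.225e-05). Igtp was at 34.0, 47.9, 167 and 259 CPM and rose by 2.50 (SE 0.35, adjusted p = 0.0011). Each of the 6 had both allogeneic above both syngeneic libraries, as did 16.2% of all genes tested in this class. Irgm2 was at 10.5, 15.6, 29.3 and 23.2 CPM and narrowly missed the call (log2 fold change 1.09, SE 0.29, adjusted p = 0.0545). The clusters that held this class differed in part between the groups. Cluster 1, led by the interferon-inducible genes Ly6c1, Cxcl9, Cxcl10 and Ly6a, held 6, 5, 213 and 981 cells in library order. Other clusters of the class held cells of both groups: cluster 6 had 92, 70, 251 and 251. Cluster 9 had 246, 201, 120 and 11 cells, and cluster 14 had 195, 150, 44 and 10. Without syngeneic 1 the count was 2 (Iigp1 and Tgtp1) and without syngeneic 2 it was 4.

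In stem-like cells 4 of 5 tested members were called, against 1.43% of 9108 genes. Iigp1 rose by 2.87 (SE 0.21, edgeR adjusted p = 1.624e-08), Tgtp1 by 2.35 (SE 0.41, adjusted p = 0.00154), Igtp by 2.17 (SE 0.21, adjusted p = 5.07e-07) and Irgm1 by 1.41 (SE 0.20, adjusted p = 0.00019). Irgm1 was at 56.6, 44.1, 132.5 and 162 CPM and Igtp at 42.4, 42.0, 179 and 243 CPM, with no overlap between the groups. Of all genes tested in this class, 17.2% had both allogeneic above both syngeneic libraries. Irgm2 was at 16.7, 10.6, 31.3 and 7.37 CPM, so allogeneic 2, with 44 stem-like cells, lay below the syngeneic pair while allogeneic 1 lay above it. Its log2 fold change of 1.01 (SE 0.33, adjusted p = 0.114) became -0.93 without allogeneic 1. Tgtp2 did not reach the count filter. Irgm1 and Tgtp1 lost their calls without syngeneic 1 (adjusted p = 0.0841 and 0.231, edgeR), Irgm1 without syngeneic 2 (0.314) and Tgtp1 without allogeneic 1 (0.105).

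In goblet-like cells, which secrete mucus, 4 of 6 members were called, against 0.688% of 9738 genes. Iigp1 was at 27.7, 17.0, 259 and 329 CPM and rose by 3.82 (SE 0.35, edgeR adjusted p = 0.000813), and Tgtp1 was at 1.75, 1.66, 18.3 and 23.9 CPM and rose by 3.72 (SE 0.45, adjusted p = 0.00463). Igtp rose by 2.85 (adjusted p = 0.0305) and Irgm1 by 1.49 (adjusted p = 0.031). Irgm2 was almost level, at 16.1, 12.4, 17.7 and 17.6 CPM. A mitochondrial limit of 10% ended all 4 calls, with Iigp1 at 3.44 (edgeR adjusted p = 0.135), and cluster 8, which held 1, 3, 86 and 498 cells, made up most of this class in allogeneic 2. Irgm1 also lost its call without syngeneic 1 (adjusted p = 0.189) and without syngeneic 2 (0.351).

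Enterocyte-like cells had 2 of 4 tested members called, against 1.19% of 7327 genes. Iigp1, from its low level, rose by 2.96 (SE 0.50, edgeR adjusted p = 0.0241). Irgm1 was at 39.8, 43.3, 87.3 and 122.5 CPM and rose by 1.57 (SE 0.34, adjusted p = 0.0489), a call that was lost without cells holding a T or NK marker (adjusted p = 0.0551) and without either syngeneic library (0.411 and 0.237). Igtp, at 95.5, 115, 114 and 336 CPM, overlapped between the groups: allogeneic 1 lay inside the syngeneic range and allogeneic 2 far above it (log2 fold change 1.39, SE 0.53, adjusted p = 0.250). Irgm2 overlapped too, at 22.4, 37.2, 22.3 and 29.7 CPM (log2 fold change 0.07, SE 0.37, adjusted p = 0.954). Most enterocyte-like cells of allogeneic 1 (203 of 362) lay in cluster 15, whose median mitochondrial share was 15.12%, and most of those of allogeneic 2 in clusters 2 and 4. The syngeneic cells of the class lay in other clusters: clusters 5 and 18 held 378 and 58 of 438 cells in syngeneic 1 and 410 and 82 of 498 in syngeneic 2, but 6 and 0 cells of allogeneic 1 and 1 cell each of allogeneic 2. The values of this class thus set different clusters against each other, and the part of this in the calls and in the overlap was not tested.

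Of the 2 rare classes, enteroendocrine-like cells, which make hormones, had 3 of 3 tested members called, against 1.13% of 2837 genes, and tuft-like cells, which sense luminal chemicals, 2 of 3, against 0.393% of 3816 genes. In enteroendocrine-like cells Iigp1 was at 26.95, 18.7, 278 and 423.5 CPM and rose by 3.76 (SE 0.42, edgeR adjusted p = 0.000154). In tuft-like cells Iigp1 was at 44.1, 18.7, 199 and 220.3 CPM and rose by 2.66 (SE 0.40, adjusted p = 0.0121), while Irgm1, at 39.2, 18.7, 116 and 153 CPM, missed the call (adjusted p = 0.0653). Neither class had overlapping groups for Iigp1, Irgm1 or Igtp, with the allogeneic libraries higher. The same held for 18.8% of all genes tested in enteroendocrine-like and 14.8% in tuft-like cells. These classes held 26 to 65 cells per library. The count filter, here and in the other class fits, can be met by the 2 allogeneic libraries alone, where these genes are high. The number of members tested is thus partly set by the filter. Irgm2 in enteroendocrine-like cells, at 8.08, 18.7, 45.4 and 0 CPM with overlapping groups, was not tested. Leaving out either syngeneic library kept only Iigp1 in enteroendocrine-like cells, leaving out allogeneic 2 ended the call of Irgm1 there (adjusted p = 0.0747, edgeR), and leaving out syngeneic 2 kept only Igtp in tuft-like cells (Iigp1 adjusted p = 0.0559).

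**Figure D3:**
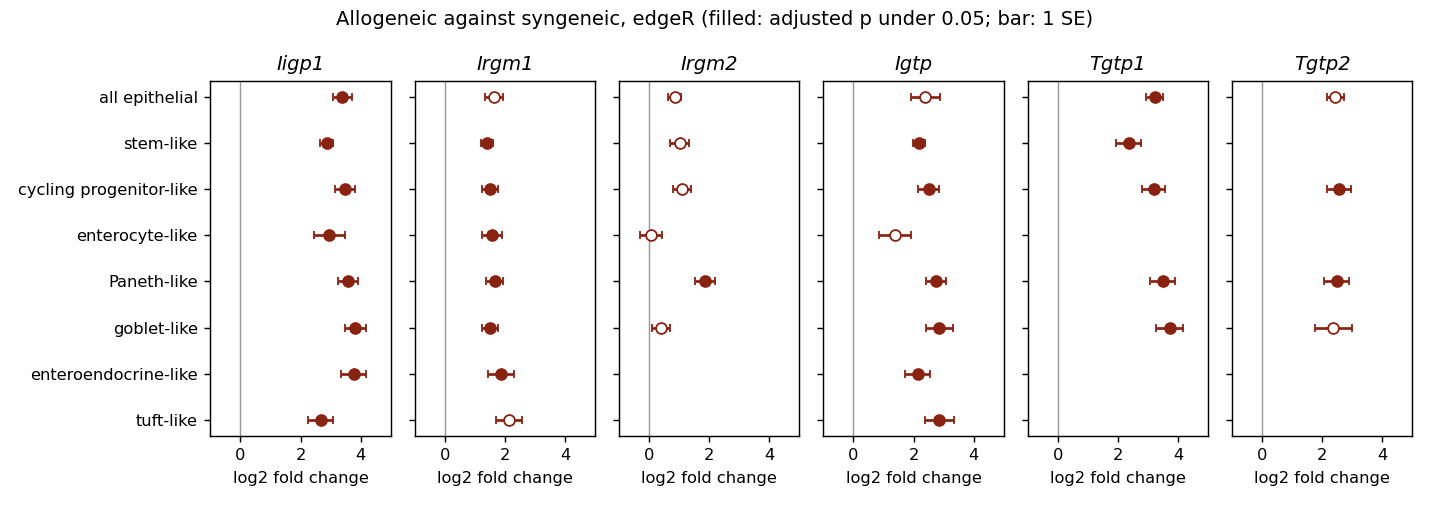
Log2 fold change of each gene, allogeneic against syngeneic, in all epithelial cells and in 7 classes (edgeR; bars are 1 SE, filled points have an adjusted p under 0.05, and a gene below the count filter has no point). Iigp1 is filled in all 8 rows, from 2.66 in tuft-like to 3.82 in goblet-like cells, and Irgm2 is filled in Paneth-like cells alone.

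Whether a class differed from the other epithelial cells in its allogeneic effect was tested as an interaction with the library as a block. In none of the 7 classes was a member called (0 of 6 in each, edgeR). At an unadjusted p under 0.05 there were 1 in stem-like, 2 each in enterocyte-like, Paneth-like and goblet-like and 0 in the other classes. The share of all genes at that level was not recorded, so these counts have nothing to be set against. Over all genes, stem-like cells had 0.422% called higher and 0.483% lower, and cycling progenitor-like cells 0.00855% and 0.0769%. Enterocyte-like cells had 0.773% and 0.605% and Paneth-like cells 0.0522% and 0.0348%. For goblet-like cells the shares were 0.311% and 0.216%. Enteroendocrine-like cells had 0.093% and 0.0592% and tuft-like cells 0.299% and 0.0171%.

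The member nearest to a call was Igtp in enterocyte-like cells, whose allogeneic effect was smaller by 1.31 on the log2 scale than in the other epithelial cells (a difference of -1.31, SE 0.31, adjusted p = 0.0893, edgeR). It was called without syngeneic 1 (-1.44), without allogeneic 1 (-0.87) and without allogeneic 2 (-1.84), and when cells were assigned to classes 1 by 1 (-1.27, adjusted p = 0.0121). Irgm2 had a larger effect in Paneth-like cells by 1.13 (SE 0.33, adjusted p = 0.473). A call in 1 class and none in another is therefore not shown to be a difference between classes.

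Counts per cell were read after each cell was thinned to 2000 UMIs, and 198, 243, 181 and 639 shallower epithelial cells were dropped. Iigp1 had a UMI in 3.64%, 2.52%, 28.2% and 25.5% of epithelial cells, against 8.71%, 6.15%, 50.2% and 41.6% of the same libraries' cells at full depth. Igtp had one in 8.04%, 7.75%, 22.0% and 41.3%, and Irgm1 in 8.56%, 6.79%, 19.6% and 23.1%. Tgtp1 had one in 0.3%, 0.367%, 3.01% and 3.43%, near the limit of what 2000 UMIs can show. These shares were higher in both allogeneic libraries, and for Irgm2 (2.89%, 3.35%, 4.85% and 4.47%) by 1.54 percentage points in the mean. At the same 2000 UMIs, in allogeneic T or NK-like cells, Iigp1 had a UMI in 3 of 85 and 2 of 71 cells (3.53% and 2.82%), close to the share in syngeneic epithelium.

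At that depth 20.1%, 17.6%, 53.6% and 65.9% of epithelial cells held a UMI of at least 1 IRG gene, and 0.376%, 0.413%, 5.1% and 6.13% held UMIs of 3 or more. The median cell had 0 IRG UMIs in both syngeneic and 1 in both allogeneic libraries, and the 90th percentile was 1 and 3. In stem-like cells the share with at least 1 gene was 24.9%, 20.6%, 63.6% and 79.3%, and in Paneth-like cells 10.0%, 9.37%, 43.4% and 57.6%. Enterocyte-like cells were the class in which the groups came closest, at 22.8%, 26.6%, 35.2% and 61.3%. In each class both allogeneic libraries had a larger share than both syngeneic ones, so that the higher sums came with more cells holding a UMI. With so few UMIs per cell this share rises with the summed level by itself. It cannot tell more cells with the RNA from more RNA per cell.

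**Figure D4:**
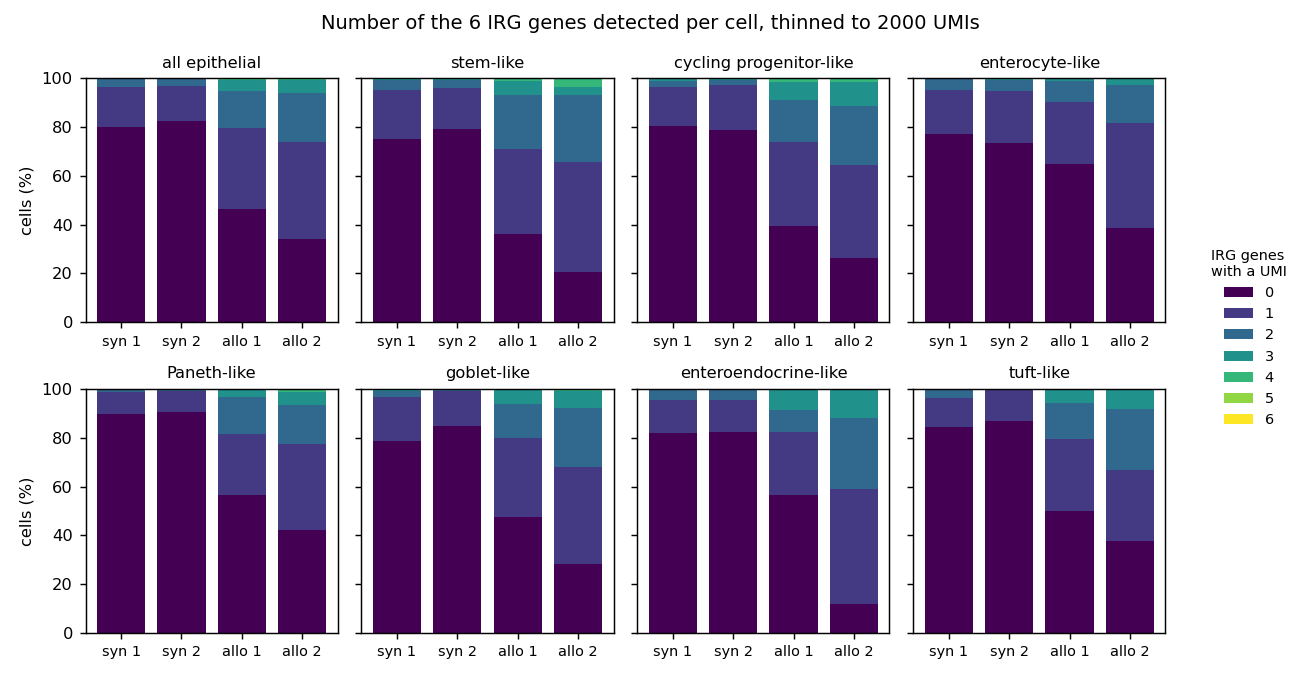
Share of cells (%) with a UMI of 0 to 6 of the IRG genes after thinning to 2000 UMIs, by class and library (syn, syngeneic; allo, allogeneic). The darkest part, cells with none, shrinks from 79.9% and 82.4% to 46.4% and 34.1% of all epithelial cells.

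The summed level was also read cluster by cluster in libraries with at least 20 cells of a cluster. In each of the 11 epithelial clusters with such libraries in both groups, the allogeneic libraries were above the syngeneic ones. Of these, 6 had 20 cells in all 4 libraries and 5 had only 1 such library on a side, and 0 of the 5 enterocyte-like clusters were among the 11. Cluster 0 (stem-like) was at 164, 142, 688.5 and 834 CPM. Cluster 12 (Paneth-like, led by the defensins Defa21 and Defa22) was at 73.8, 68.5, 335 and 311 CPM, and cluster 10 (Paneth-like, led by Reg4) at 84.0, 68.7, 535 and 699 CPM. The highest value, 1027 CPM in allogeneic 2, was in cluster 6 (cycling progenitor-like), which was at 111, 87.3 and 694 CPM in the other libraries and was led by the early-response genes Egr1, Atf3 and Fos. The lowest allogeneic epithelial values were 244 to 274 CPM, in the enterocyte-like clusters 15, 4 and 2 of allogeneic 1. Cells of such a cluster share a library, and these values carry no test.

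**Figure D5:**
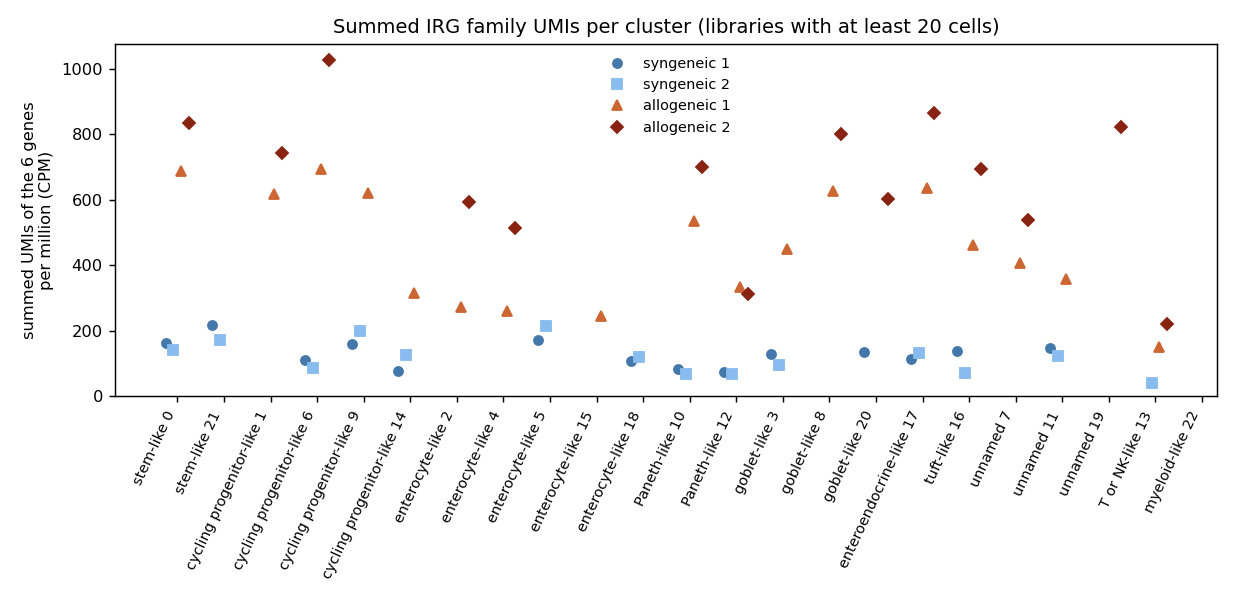
Summed CPM of the 6 IRG genes in each cluster, named by class and cluster number, 1 point per library with at least 20 cells. No allogeneic epithelial point lies below 244 CPM and no syngeneic point above 219 CPM.

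The T or NK-like lymphocytes in these samples had lower IRG levels in CPM than the epithelium in both allogeneic libraries, and too few UMIs in the syngeneic ones to place them. Their summed level was 122, 39.7, 150.1 and 220 CPM, from only 4, 3, 80 and 88 UMIs. In syngeneic 1 the exact 95% Poisson interval, 33.2 to 312 CPM, holds the epithelial level of 130.2 CPM, and Irgm1 was at 91.4 CPM in these cells (3 UMIs) against 46.6 CPM in epithelium. In the allogeneic libraries Iigp1 was at 30.01 and 42.6 CPM in these cells, against 227 and 220.5 CPM in epithelium. With 12 and 33 such cells in the syngeneic libraries, no comparison between the groups was made.

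The pathway around the IRG genes was read from lists. The guanylate-binding proteins (GBPs), larger interferon-induced GTPases that work with IRG proteins at vacuoles, had the highest median of the lists in all epithelial cells, a log2 fold change of 3.60 against 0.03 over all genes, and 4 of 9 tested were called higher and none lower. Gbp5 was at 0.301, 0.298, 12.6 and 12.2 CPM and rose by 5.39 (edgeR adjusted p = 0.0234). Gbp2 was at 8.92, 7.24, 123 and 140.5 CPM and rose by 4.10, and Gbp3 was at 1.51, 2.09, 24.4 and 18.3 CPM and rose by 3.60 (adjusted p = 0.0322 for both). All 3 had allogeneic pairs well above the syngeneic ones. Of 7 other tested IRG-related rows, 1 was called: Gm4951, a neighbour of Iigp1 on chromosome 18, was at 0.422, 0.149, 32.8 and 33.0 CPM and rose by 6.82 (adjusted p = 0.0234). The median of these rows was 2.04. DESeq2 on the same sums called 8 GBPs and 5 of these rows, all higher, beside its 1.65% of all genes. By class, edgeR called 5 of 6 tested GBPs in stem-like, 7 of 7 in cycling progenitor-like, 2 of 5 in enterocyte-like and 5 of 5 in both Paneth-like and goblet-like cells.

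Upstream genes of the pathway came next. Of 12 receptor subunits, kinases and transcription factors, 0 were called in all epithelial cells by edgeR (5 had an unadjusted p under 0.05, and DESeq2 called 1), and their median log2 fold change was 0.50. Irf7, which acts in the type I interferon loop, was at 19.1, 22.3, 58.4 and 77.2 CPM (log2 fold change 1.79, adjusted p = 0.147). Its groups did not overlap. In single classes some of these genes were called higher: 3 in stem-like, among them Irf1 (0.90, adjusted p = 0.0121) and Irf8 (1.04, adjusted p = 0.011), 3 in cycling progenitor-like, 2 in Paneth-like and 1 each in enterocyte-like and enteroendocrine-like cells. Irf7 rose in cycling progenitor-like (1.99, adjusted p = 0.00578) and enterocyte-like cells (1.67, adjusted p = 0.0255). Irf1, a transcription factor of the interferon response, also rose in cycling progenitor-like (1.45) and Paneth-like cells (1.71). Irf1 and Irf8 were chosen after their values were seen, as were the class values of the lists that follow.

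Of 7 feedback inhibitors edgeR called 0 (3 at an unadjusted p under 0.05, median 0.19), and DESeq2 called 2 higher and 1 lower. Usp18, a brake on type I interferon signalling, was at 2.41, 2.69, 18.6 and 39.8 CPM (3.65, adjusted p = 0.12). Socs3, a brake on STAT3 signalling, went the other way, at 32.1, 43.1, 16.5 and 12.7 CPM (-1.34, adjusted p = 0.143), and it was called lower in stem-like (-1.79) and cycling progenitor-like cells (-1.59). Usp18 was called higher in cycling progenitor-like (4.74), enterocyte-like (3.15), Paneth-like (3.55) and goblet-like cells (3.32), and Socs1, a brake on cytokine receptor kinases, in stem-like cells (1.16). Of 10 autophagy genes that place IRG proteins on membranes, edgeR and DESeq2 both called 0 (1 at an unadjusted p under 0.05, median 0.07). Nearest were the LC3-family genes Gabarapl1 at 7.29, 5.74, 15.7 and 9.56 CPM (0.96, adjusted p = 0.286) and Map1lc3a at 22.6, 21.9, 25.5 and 29.99 CPM (0.39, adjusted p = 0.732). Gabarapl1 was called higher in cycling progenitor-like cells (1.44, adjusted p = 0.0268), the 1 call of this list in the 7 classes. Of 6 ubiquitin ligases, adaptors and ubiquitin-like modifiers edgeR called 0 (3 at an unadjusted p under 0.05, median 0.76) and DESeq2 3. Trim21, Traf6 and Sqstm1 changed by -0.02, 0.38 and 0.33 on the log2 scale, and the modifier Isg15 by 1.90. Ubd (FAT10), a modifier that marks proteins for the proteasome, was at 21.7, 27.9, 247 and 661 CPM (4.34, adjusted p = 0.125). Rnf213, a large ubiquitin ligase, was at 21.2, 24.2, 61.0 and 38.1 CPM (1.14, adjusted p = 0.161). By class, 3 genes of this list were called higher in both stem-like and cycling progenitor-like cells, 2 in both Paneth-like and goblet-like cells and 1 in enterocyte-like cells. Ubd was called in each of these 5 classes, from 2.57 in enterocyte-like to 8.02 in cycling progenitor-like cells. Rnf213 was called in 4 of them, from 1.36 in cycling progenitor-like to 1.73 in Paneth-like cells, and Isg15 in stem-like (2.54) and cycling progenitor-like cells (2.06). Of 12 tested type I interferon-stimulated genes edgeR called 1, Oasl2 at 8.62, 10.1, 48.6 and 41.6 CPM (2.30, adjusted p = 0.0359), with a list median of 1.46. Of the 12, 8 had an unadjusted p under 0.05, and DESeq2 called 6, all higher. By class, edgeR called 3 of 6 tested genes of this list higher in stem-like and 4 of 9 in cycling progenitor-like cells. It called 2 of 9 in enterocyte-like and 1 of 6 in both Paneth-like and goblet-like cells.

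The genes whose profile was most like that of the summed IRG genes were found over the 28 sums of 7 classes and 4 libraries, by Pearson's r of log2(CPM + 1) among 5476 genes with a mean of at least 20 CPM. Among the 10 most alike were Gm4951 (r = 0.943), H2-Q4 (0.92), Gbp2 (0.916), Gbp7 (0.907), Ly6a (0.905), H2-Q6 (0.903), Cxcl9 (0.893), H2-Eb1 (0.878) and H2-Q7 (0.878), while the median r over all 5476 genes was 0.021. Sums of a library share its depth, mice and free RNA, and the 28 sums span both groups. Within the 14 sums of a group r was lower for all 9 of these genes. In the syngeneic sums it was 0.836 for H2-Eb1 and 0.7 for H2-Q4, and between -0.148 (H2-Q7) and 0.349 (H2-Q6) for the other genes named. In the allogeneic sums it was 0.865 for Gm4951 and 0.768 for Gbp2, and between 0.196 (H2-Eb1) and 0.68 (Ly6a) for the others. Among the members themselves, r over the 28 sums was 0.939 for Iigp1 with Tgtp1 and 0.898 for Irgm1 with Igtp, while Irgm2 had an r between -0.05 and 0.29 with each of the others.

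The balance within the family also differed between the groups. Iigp1 made up 19.2%, 15.2%, 41.1% and 32.0% of the members' epithelial UMIs and Irgm1 35.8%, 33.2%, 21.4% and 20.7%, while Igtp, at 31.5%, 35.8%, 26.6% and 39.5%, overlapped between the groups. Irgm2 made up 10.4%, 12.1%, 4.75% and 3.52%. These are shares of 3′ UMIs and not of protein. Tgtp1 and Tgtp2 are near-identical neighbours and their separate values are uncertain: of the 90-base windows in the last 500 bases of their transcripts, all of those of Tgtp2 and 74.0% of those of Tgtp1 occurred in another gene (each other, or Gm12185 for Tgtp1), against 0 for the other 4 members. Tgtp1 had 34, 32, 272 and 481 epithelial UMIs and Tgtp2 had 35, 32, 188 and 246. The shares of Tgtp1 were 49.3% and 59.1% in the first library of each group and 66.2% in allogeneic 2 (exact 95% binomial intervals 37.0% to 61.6%, 54.5% to 63.7% and 62.6% to 69.6%).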

How the data were processed

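The deposited matrices hold raw UMI counts (genes by barcodes), not normalised by the authors. The submitters' processing notes name Cell Ranger 2.1.1 and mm10, and the matrix header, in contrast, software version 3.1.0. The annotation release is not given in the sources used here. Barcodes were kept at 500 or more genes, 1000 or more UMIs and a mitochondrial share up to 20% (12285), and 100 doublets called by Scrublet were removed (scanpy 1.11.5). Leiden clustering (resolution 1) gave 23 clusters, named from marker lists, and classes with 20 or more cells in every library were tested. The genes of the response lists were kept out of the variable genes. A score per cell gave the same class for 76.7% of cells, and 1190 cells lay near the boundary between classes. Unnamed epithelial cells count as epithelial.

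Counts were summed per library and class and tested with edgeR 4.0.16 (TMM, filterByExpr, robust quasi-likelihood fit, Benjamini-Hochberg adjustment over all genes tested, threshold 0.05), with DESeq2 1.42.0 as an alternative. The SE is the log2 fold change divided by the square root of F. With 2 libraries per group an exact permutation test cannot go below 0.333 (two-sided), so none was used. Intervals and floors (3 counts) cover counting error only. Members, gene lists and markers were chosen with earlier results of these data known. Genes named from a list are its 3 called members with the largest change, or otherwise the 2 with the smallest unadjusted p. 1 gene that this rule names is not reported here. The fit was tested on simulated data. Gene positions are from GENCODE M21 and promoters from RefSeq (GRCm38.p6).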

Additional observations from a re-analysis of the deposited data

How the results depend on the processing

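Of 422 log2 fold changes of members recomputed under alternatives, 336 kept direction and side of the threshold, 47 lost and 34 gained a call and 5 changed sign; the cause was not tested. No paired analysis was possible because replicates were numbered in accession order, which ties no library to another. Removing cells with a T or NK marker was chosen after seeing the data. Members called in all epithelial cells numbered 5 without the count filter, 5 with DESeq2 and 0 at a mitochondrial limit of 10% (6 at an unadjusted p under 0.05, edgeR), and 2 to 6 with 1 library left out. The genes called in all went from 19 to 480, 334 and 0 under these settings and to between 96 and 5647 with 1 library left out. Without the count filter enterocyte-like cells had 5 calls and 1 difference from the other epithelial cells. At a mitochondrial limit of 10% goblet-like cells had 0 calls (edgeR) and enterocyte-like cells 1 such difference, and at clustering resolution 0.6 stem-like cells had 1. With a class assigned per cell, calls numbered 1 in enterocyte-like, 3 in Paneth-like, 2 in goblet-like and 1 in enteroendocrine-like cells, with 1 difference in enterocyte-like cells. DESeq2 gave 1 call in enteroendocrine-like cells. Without cells holding a T or NK marker there was 1 call each in enterocyte-like and tuft-like cells. With 1 library left out, the count of members called changed in each of the 7 classes, and so did that of all genes. Of 150 counts of all genes called under the alternatives, 94 moved beyond the limit set for an unchanged count. A count of members called under an alternative, here and in the class paragraphs, is therefore not by itself a result about the members. With 1 library left out, the lowest log2 fold changes in a class were 2.04 for Iigp1, 1.09 for Irgm1 and 0.13 for Igtp, each in enterocyte-like cells. The count of called differences from the other epithelial cells then changed in all classes but enteroendocrine-like and tuft-like cells. That of all genes changed in each class. A library left alone in its group is assumed to vary like the other pair. Thinning to 1000 UMIs, which lowers each share by construction, gave differences in the share of cells with a UMI of 13.1 (Iigp1), 6.80 (Irgm1), 1.04 (Irgm2) and 1.54 (Tgtp1) percentage points. Among log2 values that changed sign, Irgm2 in enterocyte-like cells was -0.042 at a mitochondrial limit of 10%, -0.016 without cells holding a T or NK marker and between -0.39 (without allogeneic 2) and 0.49 with 1 library left out (-0.27 without syngeneic 1). Irgm2 in stem-like cells lay between -0.93 (without allogeneic 1) and 1.32. Differences between a class and the other epithelial cells that changed sign were Iigp1 in stem-like cells (0.093 at 10%), Irgm2 in cycling progenitor-like cells (-0.21 at 10% and -0.18 with a class per cell) and Iigp1 in tuft-like cells (0.73 with a class per cell, and between -0.89 and 0.10, the latter without syngeneic 1).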
